A study of Mus musculus with 6 samples.

Results

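The 10 genes described here, Adipoq, Lep, Cfd, Retn, Plin1, Cidec, Lipe, Pnpla2, Fabp4 and Ucp1, are characteristic of adipocytes, the cells of the fat that surrounds the ureter. They were chosen by name for that reason, out of 36610 gene names on the array, and all non-control probes carrying 1 of the 10 names were taken. All 10 were among the 22260 genes that could be tested, and their values were read in the obstructed ureters of 6 mice. The mice were on a C57BL/6N background and 2 months old, and each ureter was taken 4 days after unilateral ureteral obstruction (UUO), the tying of the ureter on 1 side. Of the mice, 3 were Col17a1-WT and 3 were labelled Col17a1-KO, for the gene of collagen XVII, a protein that anchors basal epithelial cells to the basement membrane. KO replicate 3 was female and the other mice were male. Every mouse had been obstructed, so all comparisons here are between genotypes within UUO. Which part of Col17a1 was altered is not stated in the labels, and ureters without obstruction were not analysed here.

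White adipocytes store triglyceride in a large lipid droplet whose coat proteins hold lipases back until hormones call for fatty acids, and they secrete hormones, the adipokines, into the blood. Brown adipocytes hold many small droplets and many mitochondria and burn fatty acids as heat through an uncoupling protein. The ureter runs through retroperitoneal fat, so RNA of a dissected ureter may include that of adipocytes lying on it. In such bulk RNA, fewer adipocytes and less RNA of a gene per adipocyte cannot be told apart.

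All 10 genes were well above background on all 6 arrays, as were all 85 measured genes of 8 lists of related adipocyte genes described further on. So were 21311 of the 22260 genes tested, as the filter asked for this on all arrays of at least 1 group. The 10 gave no common difference between the genotypes: in the KO-labelled ureters 4 had a higher mean and 6 a lower one, and their 10 differences had a median of -0.03 on the log2 scale, beside -0.00087 over all genes tested. Neither these genes nor any other gene passed limma's adjusted p of 0.05 (0 of 22260, 0%). At an unadjusted p under 0.05 in limma there was 1 of the 10, Retn, beside 9.06% of all genes. The groups did not overlap for 2 of the 10, Retn and Lipe, beside 15.4% of all genes. The genes did differ in how far the 6 arrays lay apart, from 0.11 log2 units for Lep to 2.74 for Ucp1, and in 7 of the 10 WT replicate 1 was the highest array.

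**Figure D1:**
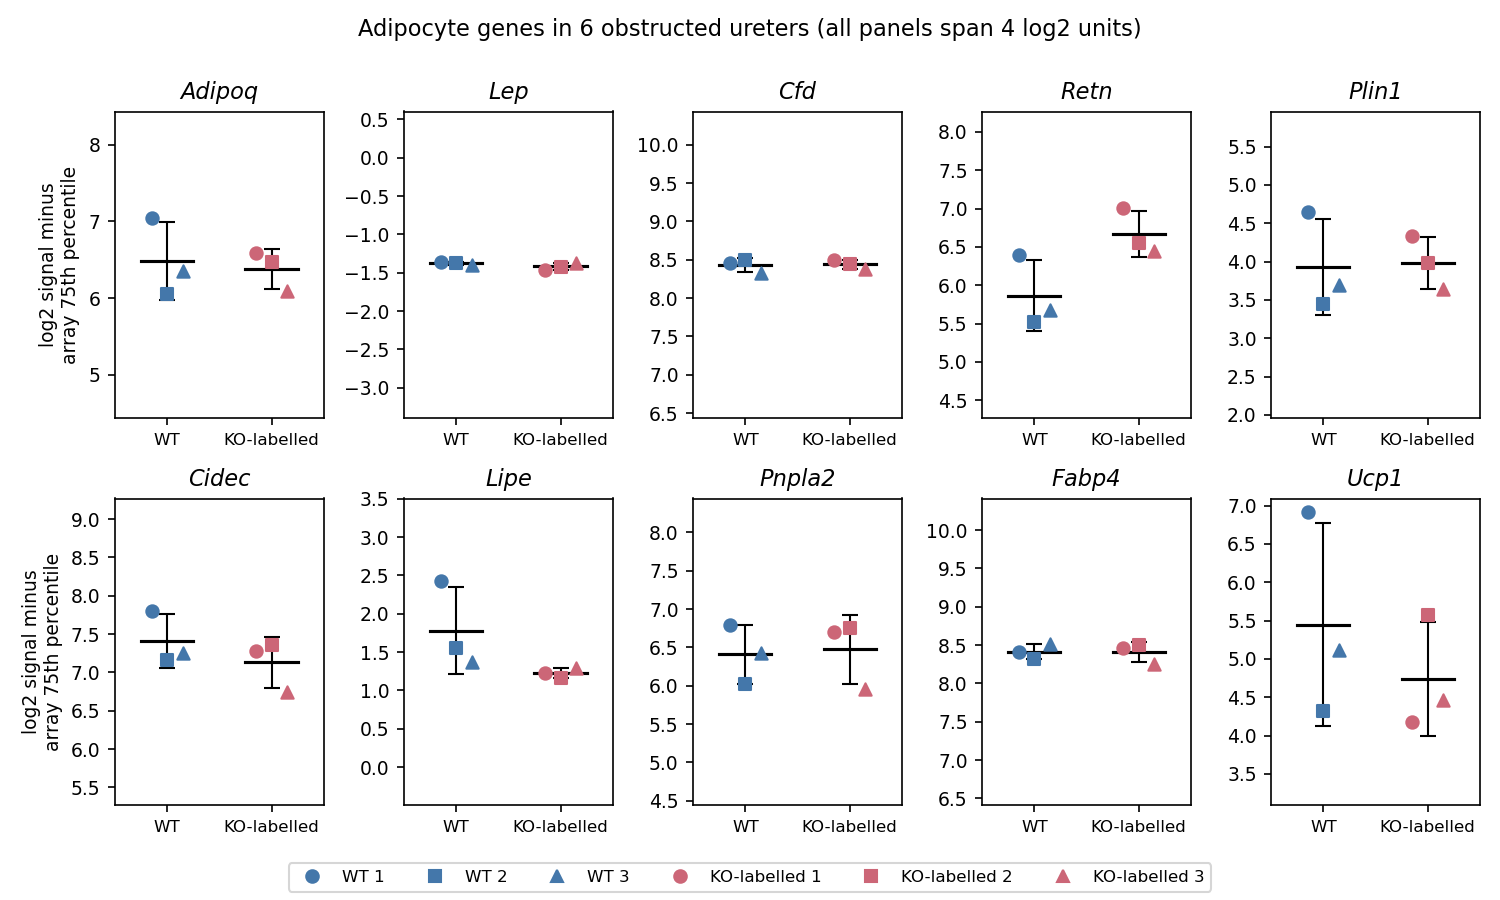
Log2 signal minus the array's 75th percentile for each of the 10 adipocyte genes on the 6 arrays, with WT in blue and KO-labelled in red; the bar is the group mean, the whisker 1 SD over 3 arrays, and every panel spans 4 log2 units. Lep, Cfd and Fabp4 lie nearly flat, Ucp1 spreads over 2.74 log2 units, and Retn is the gene whose KO-labelled arrays all lie above the WT arrays.

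The stretches of 250 bases before the transcription start of 4 of the genes are shown, from RefSeq on build GRCm38.p6. Lep was taken for the narrowest range and Ucp1 for the widest. Retn and Adipoq were taken because Retn minus Adipoq, given further on, did not overlap between the groups. Adipoq by itself did overlap. All 4 lie on the plus strand. They were read at chr16:23146286-23146535 for Adipoq, chr8:3655520-3655769 for Retn, chr6:29059971-29060220 for Lep and chr8:83290098-83290347 for Ucp1. Capitals mark a CCAAT box, or TTGCNNAA, a form of the site bound by C/EBP factors, on either strand.
Adipoq promoter: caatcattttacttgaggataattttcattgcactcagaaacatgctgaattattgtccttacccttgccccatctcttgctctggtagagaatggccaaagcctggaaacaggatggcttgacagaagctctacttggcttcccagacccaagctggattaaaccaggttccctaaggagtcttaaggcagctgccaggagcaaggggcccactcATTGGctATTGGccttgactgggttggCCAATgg
Retn promoter: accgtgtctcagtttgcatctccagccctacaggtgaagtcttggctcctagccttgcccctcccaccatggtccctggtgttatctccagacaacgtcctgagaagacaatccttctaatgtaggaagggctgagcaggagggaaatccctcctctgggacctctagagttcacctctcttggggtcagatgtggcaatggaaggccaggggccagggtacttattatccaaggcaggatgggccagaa
Lep promoter: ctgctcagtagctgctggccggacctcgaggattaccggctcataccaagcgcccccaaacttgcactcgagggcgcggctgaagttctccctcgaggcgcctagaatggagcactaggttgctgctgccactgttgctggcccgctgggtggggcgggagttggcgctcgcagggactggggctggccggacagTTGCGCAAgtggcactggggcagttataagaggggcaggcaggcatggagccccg
Ucp1 promoter: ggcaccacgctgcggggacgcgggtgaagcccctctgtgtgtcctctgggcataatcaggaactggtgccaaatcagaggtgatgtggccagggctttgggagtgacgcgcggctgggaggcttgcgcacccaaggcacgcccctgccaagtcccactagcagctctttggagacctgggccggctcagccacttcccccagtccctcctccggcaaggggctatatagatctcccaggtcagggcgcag
The Adipoq stretch held 3 CCAAT boxes, at 34 to 30, 27 to 23 and 7 to 3 bases before the start, the first pair on the minus strand. CCAAT was found in 33.85% of 32851 mouse promoter stretches of the same length. The Lep stretch held TTGCNNAA at 55 to 48 bases before the start, where it read the same way on both strands, and this motif was found in 9.564% of the stretches. Of the 9 genes with an entry, Plin1 held 2 such matches and Cidec held 1 before 1 of its 2 starts, while the Retn and Ucp1 stretches held neither motif. No TATAAA was found before any of the 9 genes, and it was found in 12.37% of all stretches. No match of 1 motif overlapped a match of another in these stretches, and the matches describe letters in a window, not bound sites.

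Among the adipokines, Adipoq encodes adiponectin, the hormone that is almost exclusive to adipocytes. Its values, as log2 signal minus the array's 75th percentile, were 7.05, 6.05 and 6.35 in WT replicates 1 to 3 and 6.59, 6.47 and 6.09 in KO-labelled replicates 1 to 3. WT replicate 1 was highest and WT replicate 2 lowest, so the KO-labelled arrays lay wholly within the spread of the WT arrays. The difference, KO-labelled minus WT, was -0.10 ± 0.28 (standard error), with a 95% interval from -0.78 to 0.57 (limma, adjusted p = 0.938). Without WT replicate 1 the difference was 0.18. The probe lies on chromosome 16 at 23157576 to 23157635 in build mm9, the build of all probe positions given here.

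Lep encodes leptin, the hormone by which fat stores reduce appetite. It was at -1.36, -1.38 and -1.39 in WT and at -1.47, -1.42 and -1.37 in KO-labelled ureters. The 6 values lay within 0.11 log2 units of each other, a range at or under which only 0.611% of all genes fell, and the wide spread of Adipoq over the same arrays was not seen in Lep. The difference was -0.04 ± 0.09, with an interval from -0.27 to 0.18 (limma, adjusted p = 0.915). The processed signals, 55.4 to 61.6, were below the 75th percentile of every array (143.7 to 164.9) yet well above background. Whether the narrow range of Lep follows from this low signal was not tested. The probe is on chromosome 6 at 29020910 to 29020969.

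Cfd encodes adipsin, or complement factor D, a protease of the alternative complement pathway that adipocytes secrete. Its brighter probe was at 8.46, 8.50 and 8.32 in WT and at 8.49, 8.45 and 8.38 in KO-labelled ureters. These values spanned 0.17 log2 units with the groups interleaved, and the difference was 0.01 ± 0.10, with an interval from -0.24 to 0.26 (limma, adjusted p = 0.982). A second probe 28 bases away, on the same transcript, spanned 0.21 and differed by 0.04. Cfd gave high scanner signals, with mean signals of 6.89% to 8.26% of the saturation value for the brighter probe, and no spot was saturated. The brighter probe is on chromosome 10 at 79355302 to 79355361.

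Retn encodes resistin, which in mice is secreted mainly by adipocytes and opposes insulin action. It was at 6.39, 5.53 and 5.67 in WT and at 7.01, 6.55 and 6.45 in KO-labelled ureters. Every KO-labelled array lay above every WT array, although the highest WT value, of replicate 1, was within 0.06 of the lowest KO-labelled value. The means were 5.86 ± 0.46 and 6.67 ± 0.30 (SD, n = 3 each), and the difference was 0.81 ± 0.27, or 1.75-fold, with an interval from 0.16 to 1.46. This difference did not pass after adjustment over all genes (limma, unadjusted p = 0.0227, adjusted p = 0.486). Without WT replicate 2, WT replicate 3 or KO-labelled replicate 1, the unadjusted p was 0.0697, 0.0709 and 0.0721 in turn, and the difference was between 0.64 and 0.71 (limma).

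A second Retn probe, further along the gene on chromosome 8, gave a similar picture. The first probe is at 3657312 to 3657371 and the second at 3659757 to 3659816. The second probe was at 6.20, 5.41 and 5.46 in WT and at 6.71, 6.27 and 6.17 in KO-labelled ureters. Here WT replicate 1 was just above KO-labelled replicate 3, so the groups overlapped. The difference was 0.69 ± 0.26 in the fit over all kept probes (limma, adjusted p = 0.512).

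**Figure D2:**
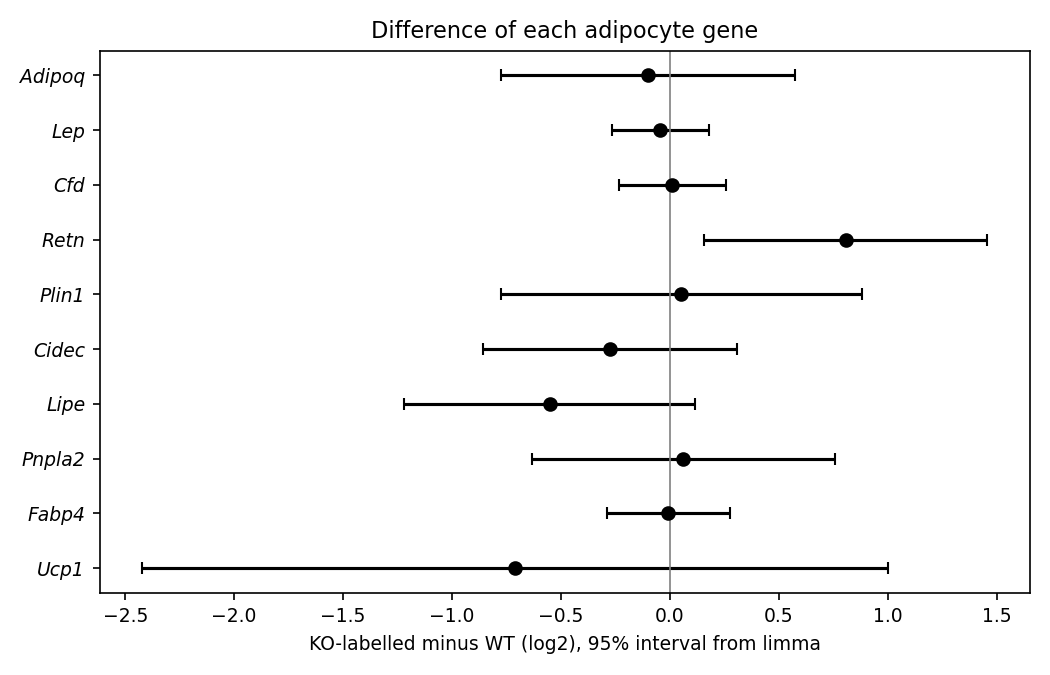
Difference of each adipocyte gene, KO-labelled minus WT, on the log2 scale, with points for the difference of 3 against 3 arrays and bars for limma's 95% interval. The interval of Retn, 0.16 to 1.46, lies to the right of 0, and the intervals of the other 9 genes include 0.

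Among the proteins of the lipid droplet, Plin1 encodes perilipin 1, the coat protein that controls the access of lipases in adipocytes. It was at 4.64, 3.45 and 3.70 in WT and at 4.33, 3.98 and 3.64 in KO-labelled ureters. As in Adipoq, WT replicate 1 was highest and WT replicate 2 lowest, and the groups overlapped. The difference was 0.05 ± 0.34, with an interval from -0.78 to 0.88 (limma, adjusted p = 0.977). The probe is on chromosome 7 at 86866112 to 86866171.

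2 dimmer Plin1 probes, placed on other Ensembl transcripts, were also well above background on all arrays. One was at 0.52, -0.08 and 0.09 in WT and at 0.36, 0.06 and -0.55 in KO-labelled ureters, a difference of -0.22. The other was at 0.40 in WT replicate 1 and between -2.51 and -1.83 on the other 5 arrays, so its range of 2.91 log2 units rested on 1 array. Its difference was -0.81 ± 0.73, and the brightest and the dimmer probes thus differed in sign, none past the threshold.

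Cidec encodes a droplet protein that fuses small droplets into the large one of white adipocytes. It was at 7.81, 7.16 and 7.25 in WT and at 7.28, 7.36 and 6.75 in KO-labelled ureters. WT replicate 1 was again highest, KO-labelled replicate 3 was lowest, and the other 4 arrays lay within 0.20 of each other. The difference was -0.27 ± 0.24, with an interval from -0.86 to 0.31 (limma, adjusted p = 0.765). It was -0.07 without WT replicate 1 and -0.08 without KO-labelled replicate 3. Its probe is on chromosome 6 at 113374693 to 113374752.

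Of the lipases, Pnpla2 encodes ATGL, which removes the first fatty acid of a triglyceride. Its values were 6.79, 6.02 and 6.42 in WT and 6.71, 6.76 and 5.96 in KO-labelled ureters. Each group held both high and low arrays, with WT replicate 2 and KO-labelled replicate 3 at the bottom, and the difference was 0.06 ± 0.29, with an interval from -0.63 to 0.76 (limma, adjusted p = 0.967). The probe is on chromosome 7 at 148645928 to 148645987.

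Lipe encodes hormone-sensitive lipase, which cleaves the diglyceride left by ATGL, and its probes did not give the same answer. The brightest probe, annotated to a clone sequence and at 26167986 to 26168045 of chromosome 7, was at 2.42, 1.55 and 1.36 in WT and at 1.23, 1.16 and 1.29 in KO-labelled ureters. All KO-labelled values lay below all WT values, the nearest by 0.08, and WT replicate 1 stood apart above. The difference was -0.55 ± 0.28, with an interval from -1.22 to 0.12 (limma, unadjusted p = 0.0902, adjusted p = 0.604), and without WT replicate 1 it was -0.23. The probe annotated to the RefSeq transcript, at 26165828 to 26165887, was at 1.81, 0.96 and 1.31 in WT and at 1.77, 1.52 and 0.75 in KO-labelled ureters. There the groups overlapped fully, with a difference of -0.02 ± 0.32. The remaining Lipe probe stayed near background on all 6 arrays and gave no value. Of the 17 probes for the 10 genes it was the 1 left out.

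Fabp4 encodes the fatty acid carrier of adipocytes, which endothelial cells and macrophages also make. Its brighter probe was at 8.41, 8.32 and 8.52 in WT and at 8.46, 8.50 and 8.26 in KO-labelled ureters. The values spanned 0.26 log2 units with the groups interleaved, and the difference was -0.01 ± 0.12, with an interval from -0.29 to 0.28 (limma, adjusted p = 0.991). The second probe was at 6.76, 6.02 and 6.52 in WT and at 6.75, 6.75 and 6.00 in KO-labelled ureters. It spanned 0.76, and its lowest arrays, WT replicate 2 and KO-labelled replicate 3, were also the lowest of the brighter probe and of Pnpla2. The brighter probe, on chromosome 3 at 10204452 to 10204511, had mean signals of 5.61% to 7.48% of the saturation value. Whether the narrow range of the bright Cfd and Fabp4 probes follows from their high signal was not tested.

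Ucp1 encodes the uncoupling protein that defines heat-producing brown and beige adipocytes. It was at 6.91, 4.32 and 5.11 in WT and at 4.17, 5.58 and 4.46 in KO-labelled ureters. The highest array, WT replicate 1, was 6.67-fold above the lowest, KO-labelled replicate 1, and only 1.36% of all genes had a range at least as wide. The SD was 1.33 among WT and 0.74 among KO-labelled arrays, so the difference of -0.71 ± 0.71, with an interval from -2.42 to 1.0, was no larger than the spread within the groups (limma, adjusted p = 0.794). Without WT replicate 1 the difference was 0.02. The Ucp1 probe is on chromosome 8 at 85821788 to 85821847.

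The same array was highest for most of the genes. WT replicate 1 was highest for Adipoq, Lep, Plin1, Cidec, Lipe, Pnpla2 and Ucp1, beside 25% of all genes, and it was highest for 51 of the 85 related adipocyte genes (60%). Its lead was small in Lep, at -1.36 against -1.37 in KO-labelled replicate 3, and in Pnpla2, at 6.79 against 6.76 in KO-labelled replicate 2. The mean over the 10 genes was 5.75, 4.95 and 5.13 in WT and 5.28, 5.34 and 4.99 in KO-labelled ureters, with no separation of the groups. Several other marker lists also varied between the arrays. A list of 7 adipocyte progenitor markers had a mean of 3.21 in WT replicate 1 and between 2.49 and 2.96 on the other arrays, and 4 kidney markers had a mean of -1.45 in WT replicate 2 and between -3.72 and -3.54 elsewhere. The part of these in the adipocyte gene values was not tested.

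Read within each array, Retn and Adipoq came apart between the groups. Retn minus Adipoq was -0.66, -0.53 and -0.68 in WT and 0.42, 0.08 and 0.36 in KO-labelled ureters. The level of this difference depends on the pair of probes and has no meaning of its own. Its change between arrays can also depend on the probe, as the second Retn probe differed by 0.69 between the groups, beside 0.81 for the first. With the brightest probes the groups were 0.91 apart, with means of -0.62 ± 0.08 and 0.29 ± 0.18 (SD, n = 3 each). Of the other 9 genes, 1, Retn, did not overlap between the groups on this scale, beside 6.38% of all genes. With the Adipoq value of each array as a covariate, a setting added after the data had been seen, the Retn difference was 0.90 ± 0.12, with an interval from 0.59 to 1.21 (limma, unadjusted p = 0.000646, adjusted p = 0.108). Of the 9 genes left to test, 1, Retn, was then under an unadjusted p of 0.05, beside 17.3% of all genes, and no gene passed after adjustment. With Cidec as the covariate the difference was 1.06 ± 0.20 (limma, adjusted p = 0.0902), and 2 of the 9 genes left to test were under 0.05, beside 19.4% of all genes.

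**Figure D3:**
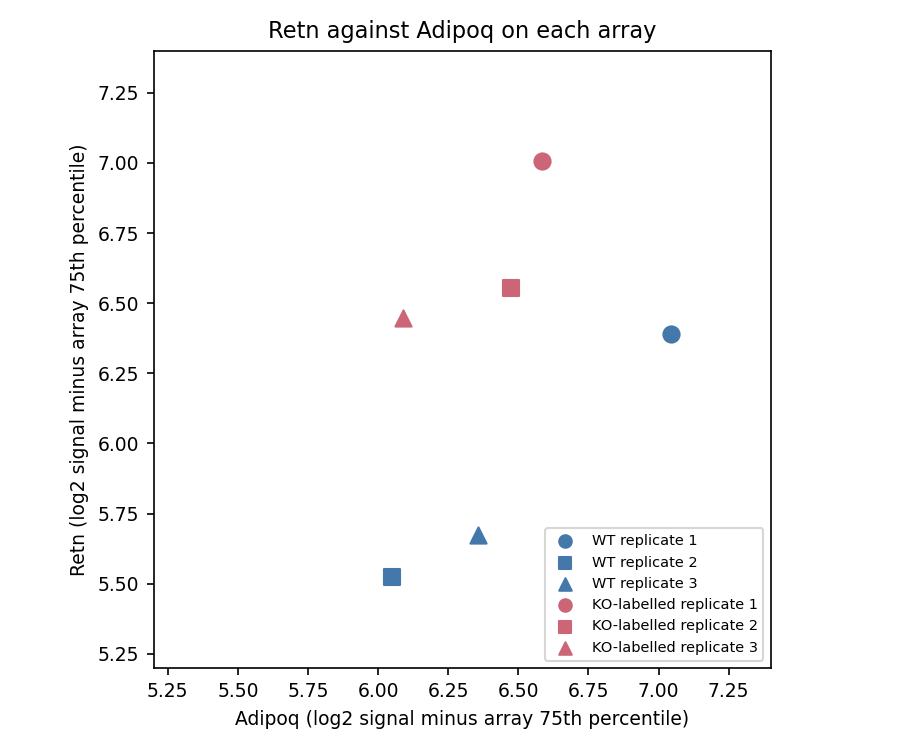
Retn against Adipoq on each of the 6 arrays, both as log2 signal minus the array's 75th percentile, with WT in blue and KO-labelled in red. The 3 KO-labelled arrays lie above and to the left of the band of WT arrays, with Retn minus Adipoq between 0.08 and 0.42 against -0.68 to -0.53 in WT.

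Markers of other cells are given beside the Retn values, with the number whose groups did not overlap. That share was 15.4% over all genes. The mean of 8 macrophage markers was 5.18 to 5.38 in WT and 4.45 to 4.95 in KO-labelled ureters, all 8 were lower, and 7 did not overlap. Of 6 neutrophil markers, 5 were well above background on all arrays, and their mean was 1.41 to 2.69 in WT and 2.32 to 3.08 in KO-labelled ureters, with overlap. Among these 5, S100a8 differed by 0.11, S100a9 by 0.44 and Csf3r by -0.13, each with overlap. Ltf differed by 1.99 and Camp by 1.17, both higher in the KO-labelled ureters without overlap. For 4 mesothelial markers the means were -1.48 to -0.71 and -0.66 to -0.18. All 4 were higher, 1 without overlap, and Wt1 differed by only 0.009. For 6 urothelial markers the means were 3.40 to 4.60 and 4.35 to 5.36, all 6 higher, 2 of them without overlap. For 6 smooth muscle markers they were 3.94 to 4.95 and 4.60 to 5.55, all 6 higher but each with overlap. The part of these cells in the Retn, Lipe or Fabp4 values was not tested. None of the markers named here passed the adjusted threshold.

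Col17a1 itself goes against the labels. Its brighter probe was at -2.33, -0.80 and -0.39 in WT and at 0.50, 0.53 and 0.40 in KO-labelled ureters, so every array labelled KO lay above every WT array, by 1.65 ± 0.48 on average (limma, adjusted p = 0.457). Its other probe had the same order of groups. A probe outside the altered part of the gene does not check the genotype, and each direction here rests on the labels.

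The values of the 10 genes can be set beside genes whose values followed Adipoq most closely over the 6 arrays. Likeness was measured as the root mean square difference after each gene was centred on its own mean, among 16927 genes with a reference symbol. The 8 nearest were Prrt2, Fahd2a, Srr, Ube2h, Sspn, Pink1, 1810062O18Rik and Entpd5, at 0.0388 to 0.0507 log2 units. With normexp background correction Prrt2 was at 0.275 and 1810062O18Rik at 0.202, and with probes averaged Srr was at 0.117. Of these Pink1 encodes a mitochondrial kinase, Srr serine racemase, and Sspn a membrane protein of the dystrophin complex. Plin1 ranked 200, Cidec 346 and Pnpla2 577, while Fabp4, Lipe, Cfd and Lep ranked between 3787 and 5508. Retn ranked 11954 and Ucp1 15833, the farthest of the members from Adipoq. Cebpa, a transcription factor of adipocyte differentiation, ranked 48 and Cd36, a fatty acid receptor, ranked 92. With 6 arrays and an order led by WT replicate 1, these ranks describe these arrays.

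The wider adipocyte programme was read in 8 lists with 89 genes, of which 85 were measured. In the KO-labelled ureters 46 of them were higher and 39 lower, and their median difference was 0.03. At an unadjusted p under 0.05 in limma, 4 were higher and 5 lower, and the same numbers did not overlap between the groups. None passed after adjustment, where the lowest adjusted p was 0.435. Over all genes these shares were 9.06% and 15.4%, so the lists are read as a description.

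Of 9 droplet coat genes 4 had higher and 5 lower means in the KO-labelled ureters (median difference -0.09). Plin2, the droplet coat protein of most cell types, macrophages included, was at 6.16, 6.12 and 6.32 in WT and at 5.21, 5.74 and 5.74 in KO-labelled ureters. Its groups did not overlap, with a difference of -0.63 ± 0.17 (limma, unadjusted p = 0.0101, adjusted p = 0.454), beside the lower macrophage markers given above, whose part in it was not tested. Cideb, a relative of Cidec, differed by -0.94 ± 0.34 with overlapping groups (-0.32 with its probes averaged), and Plin3 differed by -0.20 ± 0.13. Plin2 and Cidec thus had the same sign, while Plin1, the adipocyte coat protein, had a difference near 0.

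For lipolysis control, 3 of 10 genes had higher and 7 lower means (median difference -0.23). G0s2, an inhibitor of ATGL, was at 2.30, 1.77 and 1.10 in WT and at 0.60, -0.02 and 1.76 in KO-labelled ureters, with overlap through KO-labelled replicate 3, and differed by -0.94 ± 0.51. Npr1, a receptor for natriuretic peptides, differed by -0.29 ± 0.16, also with overlap. Neither passed (limma, adjusted p of 0.625 and 0.637).

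In the synthesis of triglyceride, 12 of 16 genes had higher and 4 lower means (median difference 0.11). Me1, malic enzyme, which supplies NADPH for making fatty acids, was at 4.46, 3.52 and 4.05 in WT and at 4.77, 4.63 and 4.70 in KO-labelled ureters. Its groups did not overlap, and it differed by 0.69 ± 0.24 (limma, adjusted p = 0.492). Gpam, the first acyltransferase of the pathway, differed by 0.14 ± 0.13 and Mogat1 by -0.46 ± 0.44.

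Lipid uptake gave 4 genes higher and 5 lower (median difference -0.08). Gpihbp1, the capillary protein that holds lipoprotein lipase in place, was at 3.84 to 3.96 in WT and at 4.01 to 4.73 in KO-labelled ureters and differed by 0.50 ± 0.19, without overlap. It is made by endothelial cells, whose 8 markers had a mean of 1.65 to 1.88 in WT and 1.66 to 2.27 in KO-labelled ureters, and their part in it was not tested. Angptl4, an inhibitor of lipoprotein lipase, differed by -0.35 ± 0.17 and Fabp5 by -0.17 ± 0.12.

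Among 12 transcription factors of adipocytes, 5 had higher and 7 lower means (median difference -0.08). Nr1h3, the sterol receptor LXR alpha, which macrophages also express, differed by -0.38 ± 0.15 and did not overlap (limma, adjusted p = 0.535). Cebpd, an early factor of adipocyte differentiation, differed by 0.33 ± 0.15, also without overlap, and Klf15 by 0.51 ± 0.45, or 0.15 without WT replicate 2 and 0.23 without KO-labelled replicate 1. In the insulin response list 7 of 9 were higher, with a median of 0.08. Trarg1, a protein of vesicles that carry the glucose transporter GLUT4, differed by -0.45 ± 0.16 without overlap (limma, adjusted p = 0.497), while Cavin1 differed by 0.10 ± 0.10.

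Among other adipokines and receptors, 6 of 10 were higher, with a median of 0.11. Rbp4, the retinol carrier of blood that adipocytes and other cells secrete, was at 4.41, 3.07 and 2.83 in WT and at 5.19, 5.15 and 5.0 in KO-labelled ureters. Like Retn it was highest in KO-labelled replicate 1 and had no overlap, with a difference of 1.68 ± 0.41, or 3.20-fold (limma, unadjusted p = 0.00562, adjusted p = 0.435). Cdh13, a receptor that binds adiponectin, differed by 0.33 ± 0.15 and Nrg4, a growth factor of brown fat, by 0.50 ± 0.40, both with overlap. The Nrg4 difference was 0.23 without WT replicate 3 and 0.10 with its probes averaged.

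Several genes of brown adipocytes varied widely between mice, as Ucp1 did. Of Ucp1, Cidea and the 10 measured genes of the brown list, 9 of 12 were highest in WT replicate 1 and 8 of 12 lowest in WT replicate 2, beside 25% and 18.4% of all genes. Cidea, a droplet protein of brown fat, was at 6.78, 2.64 and 4.15 in WT and at 5.10, 5.40 and 4.31 in KO-labelled ureters, a range of 17.6-fold whose ends were both WT arrays. Cox7a1, a muscle and brown fat subunit of cytochrome oxidase, ranged 12.8-fold, and Cpt1b, which brings fatty acids into mitochondria, 10.4-fold. Cox8b, another oxidase subunit, ranged 9.0-fold, Elovl3, a fatty acid elongase, 6.02-fold, and Kcnk3, a potassium channel, 5.16-fold. All 5 had the same highest and lowest arrays as Cidea, whereas Ucp1 was lowest in KO-labelled replicate 1.

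The remaining brown genes had other orders. Ppargc1a, a coactivator of mitochondrial genes, was at 0.04, -1.31 and -1.26 in WT and at 0.64, 1.15 and -0.66 in KO-labelled ureters, a difference of 1.22 ± 0.56 (limma, adjusted p = 0.579). Dio2, which activates thyroid hormone, was also highest in KO-labelled replicate 2 and differed by 0.59 ± 0.48. Prdm16, a regulator of brown and beige fate, differed by -0.36 ± 0.15 with no overlap (limma, unadjusted p = 0.0469, adjusted p = 0.542). Otop1, a proton channel, differed by -0.99 ± 0.46, and Tbx1 was highest in KO-labelled replicate 3. Over the 10 brown list genes 5 had higher and 5 lower means (median difference -0.01). Some of these genes, such as Cox7a1 and Cox8b, are also expressed in muscle, and the part of other tissue in their values was not tested.

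**Figure D4:**
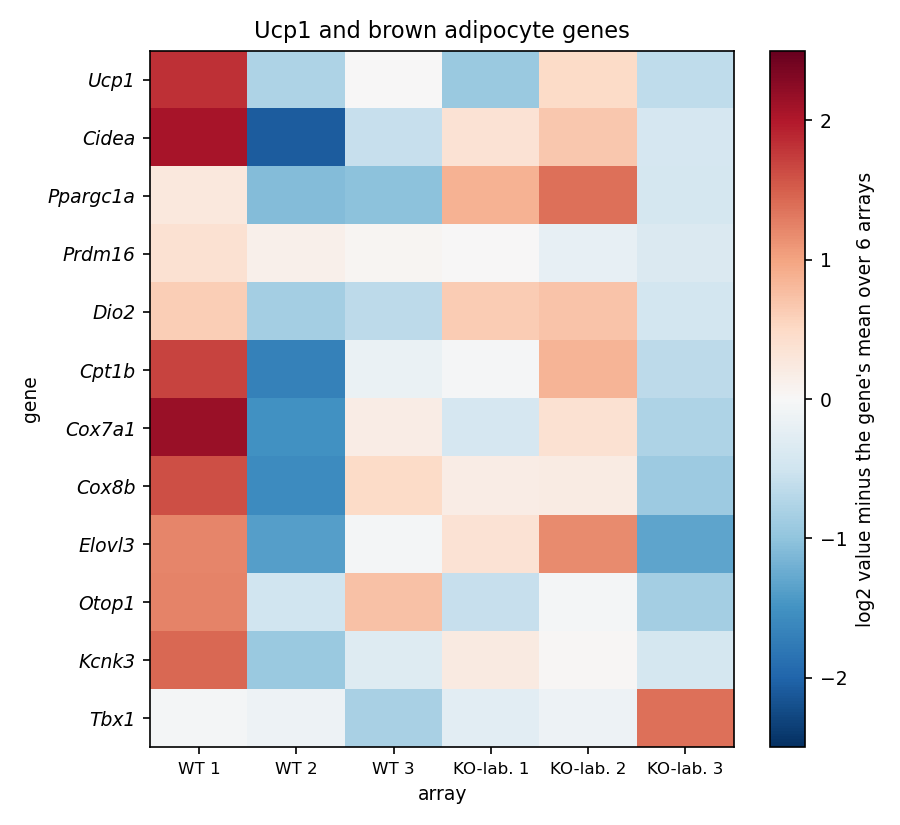
Ucp1, Cidea and 10 genes of brown adipocytes on the 6 arrays, as log2 values minus each gene's own mean over the arrays (red above, blue below). The WT replicate 1 column holds the highest value for 9 of the 12 genes and the WT replicate 2 column the lowest for 8 of them.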

How the data were processed

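Ureter RNA of 6 mice was measured on 1-colour Agilent arrays, 1 per mouse and all on 1 slide with a shared scan. Per the file headers, the deposited intensity values came from Agilent Feature Extraction 12.0.3.1, with its own background subtraction and detrending of each array. Probe positions are those of mm9 in the deposited annotation. Any between-array normalisation by the authors is not stated in the labels or headers.

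The processed signal was taken as log2, from which the 75th percentile of that array was subtracted. Probes well above background on all arrays of at least 1 group were kept, and the brightest represented its gene (22260 genes from 56605 probes). Clone identifiers among them are counted as genes. KO-labelled and WT arrays (n = 3 each) were compared over all genes with limma 3.58.1 in R 4.3.3 (lmFit, eBayes), adjusted by Benjamini-Hochberg at 0.05. The fit was tested on simulated data. The p-values set each difference against the spread within the groups of these 6 samples. Beyond numbered titles the labels do not describe how the mice were sampled, so that spread may be partly technical. An exact permutation test of 3 against 3 cannot go below 0.1.

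Correlations between arrays ran from 0.977 to 0.993. The correlations of same-numbered arrays used to look for pairing are on a different scale and were 0.531, -0.149 and -0.0295. These do not settle whether the numbers pair the mice, which the labels do not state, and the main fit was unpaired. The 10 genes and all lists were chosen with earlier results of these data known. The naming rule took the 10 genes, the 3 genes of smallest p in each related list, all brown list genes, the 8 nearest Adipoq and Col17a1. Some genes this rule names are not reported here, though the list counts include them. Alternatives covered background correction, normalisation, the dim filter, probe choice, the variance model, array weights, sex (KO replicate 3 alone is female, so this equals leaving it out), the replicate block, left-out arrays and, added after seeing the data, Adipoq or Cidec as a covariate.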

Additional observations from a re-analysis of the deposited data

How the results depend on the processing

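The median difference of the 10 genes, -0.03 in the main fit, stayed within the replicate spread under all 20 alternatives. The mean SD of these genes between replicates was 0.32, a wide bound for such a median, and its sign was not stable. The median was 0.0027 with median centring and -0.16 to 0.04 when arrays were left out. The sex covariate gave the same values as leaving out KO replicate 3, the only female, so 19 alternatives are distinct. Of the differences of single named genes, 808 kept their direction and side of the threshold, 47 changed sign and 3 passed it. The number of genes past the adjusted threshold was 498 with array weights, which did not converge and ran from 0.229 for WT replicate 1 to 6.93 for WT replicate 3. Those 3 were then Retn at 1.10 (limma, adjusted p = 0.0439), Rbp4 at 2.25 (0.0344) and Plin2 at -0.85 (0.0495), while the adjusted p of Retn lay between 0.0439 and 0.976 over all alternatives. The count was 1 with the replicate block, which changed no call for the 10 genes and left Retn at an adjusted p of 0.479, and 0 to 1 when an array was left out. Of the 10 genes, 0 to 1 had an unadjusted p under 0.05 when an array was left out, with 0 without WT replicate 2 or KO replicate 1 and with Lipe in place of Retn without WT replicate 3. The number was 0 without both WT replicate 2 and KO replicate 3, and 2 with Cidec as a covariate. The groups did not overlap for 1 gene with quantile normalisation or when a gene's probes were averaged, and for 2 to 3 when an array was left out.

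These differences changed sign under the settings named. Fabp4 was 0.011 with normexp, 0.0127 with quantile normalisation, 0.0209 with median centring, 0.0318 with the mean of probes, 0.0681 with sex, 0.0205 without both arrays, 0.00652 with Adipoq and 0.047 with Cidec as a covariate. Adipoq was 0.125 with array weights, 0.0458 with sex and 0.201 with Cidec. Plin1 was -0.324 with the mean of probes and -0.0166 without both arrays. Cpt1b was -0.0228 with normexp and -0.362 without both arrays, where Cidea was -0.218. Kcnk3 was 0.387 with array weights, 0.0628 with sex, 0.0964 with Adipoq and 0.499 with Cidec. Cox8b was 0.0239 with sex and 0.466 with Cidec, which gave 0.346 for Cox7a1 and 0.0652 for Mogat1. Leaving out 1 array, or WT replicate 2 and KO replicate 3 together, gave -0.318 to 0.18 for Adipoq, -0.0415 to 0.0752 for Cfd, -0.0546 to 0.0681 for Fabp4, -0.187 to 0.408 for Plin1, -0.132 to 0.321 for Pnpla2 and -1.27 to 0.0195 for Ucp1. It gave -0.53 to 1.54 for Cidea, -1.44 to 0.394 for Cox7a1, -1.21 to 0.377 for Cox8b, -0.715 to 0.972 for Cpt1b, -0.506 to 0.838 for Elovl3 and -0.619 to 0.564 for Kcnk3. Without 1 array, 34 of 43 named genes had a difference that moved over 1.5-fold or changed sign: Cidec ranged from -0.398 to -0.0738, Cideb from -1.27 to -0.625, Klf15 from 0.148 to 0.871 and Nrg4 from 0.229 to 0.886. The 8 nearest distances from Adipoq were 0.0449 to 0.275 with normexp and 0.0388 to 0.117 with probes averaged. The cause was not tested. With 3 arrays a group, the number of arrays limits the precision.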
